A study of Mus musculus with 2 samples.

Results

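The genes described here were 31 type I interferon-stimulated genes (ISGs), chosen by name from the known antiviral response. Of the 31, 29 were matched by symbol among the 32285 genes of the count matrix, and Mx1 and Mx2 were not analysed here. Each gene was followed across 10 cell classes gated by marker genes, in a library from residual tumors after insufficient irreversible electroporation (iIRE) and in a library from control tumors.

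The tumors were orthotopic, made by placing KPC cells, a pancreatic cancer line from genetically engineered mice, into the pancreatic tail of male C57BL/6 mice aged 5 to 7 weeks. In the iIRE group, electric pulses through inserted needles ablated part of the tumor and left viable cells at its margin, and residual tumor was taken 3 days later. The control group had sham surgery, described in the methods as needle insertion without pulses and elsewhere in the study as no treatment, and both groups carried the same tumor line in an immunocompetent host. Each group was 1 library of 5′ single-cell RNA-seq, the number of mice behind a library was not given in the sources used here, and with 1 library a group the differences carry no test.

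The iIRE library held 19433 barcodes and 222153118 unique molecular identifiers (UMIs, each standing for 1 captured RNA molecule), and the control library held 18538 barcodes and 247105192 UMIs. After filters and removal of doublets, 15991 iIRE cells and 15274 control cells remained, with medians of 6014 UMIs in iIRE and 7343 UMIs in control, and 458 barcode sequences occurred in both libraries. The libraries were told apart by the number at the end of each barcode, matched to the library number in the labels, and the direction of every difference below rests on that match. The sources used here do not settle it: the study's text gives the larger mean of UMIs per cell to the iIRE library, whereas by these endings the iIRE library averaged 11432 UMIs per barcode and the control library 13330 UMIs. The same text gives more cells and fewer T cells to the iIRE group, the order these endings also give (28 cells of the T or NK lineage in iIRE and 79 in control). By the study's cell numbers, dendritic and endothelial cells were fewer and neutrophils slightly more in the iIRE group. The endings give that order too, with 41 iIRE and 102 control dendritic cells, 27 iIRE and 30 control endothelial cells, and 148 iIRE and 141 control neutrophils. It also gives more macrophages to the iIRE group, whereas the macrophage class gated here held 889 iIRE and 894 control cells. The gates used here differ from the clusters of the study. If the endings were crossed, every iIRE and control value would change places. The classed cells were 13263 in the iIRE library and 12279 in the control library, and the host classes carried 88.6 to 180 CPM (UMIs per 1000000 UMIs) of Y-linked RNA against 1.67 to 2.82 CPM in the tumor cell classes.

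Type I interferons, which include the interferon-alpha family and interferon-beta, bind the receptor IFNAR1/IFNAR2 and activate the kinases JAK1 and TYK2. These phosphorylate STAT proteins, among them STAT2, which joins IRF9 in the complex ISGF3, and ISGF3 binds interferon-stimulated response elements in the promoters of ISGs. The proteins made act at many points of a viral life cycle: some sense foreign nucleic acid, some block translation or degrade RNA, some act on membranes where viruses enter or bud, and some amplify or limit the signal. In tumors the same response is known to follow the sensing of nucleic acid from damaged cells, and it can also run at a low level without an evident trigger.

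The members lay on 14 chromosomes of mm10, and some of them were neighbors. The IFIT genes formed a cluster on chromosome 19, with Ifit2 (34550694 to 34576419), Ifit3 (34583531 to 34588731), Ifit3b (34607970 to 34613401) and Ifit1 (34640871 to 34650009) on the same strand. The 5 members of the OAS family lay on chromosome 5, in the block Oas2, Oas3 and Oas1a (120730333 to 120907521) and the pair Oasl2 and Oasl1 (114896936 to 114937915). Rsad2 (26442746 to 26456452, minus strand) and Cmpk2 (26469204 to 26479837, plus strand) stood head to head on chromosome 12. Members of these families share sequence, so that reads between near-identical copies such as Ifit3 and Ifit3b are uncertain.

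The promoters were searched for the element through which ISGF3 acts. Windows from 250 bases before to 50 bases after a transcription start were taken from RefSeq (GRCm38.p6) for 23 of the 31 members and searched on both strands for GAAA, then any pair of bases, then GAAA again, the core of the interferon-stimulated response element, with overlapping matches counted. The motif was found in 14 of the 23 members (60.9%), against 3.99% of 27025 genes with a window of the same length. For 10 of the 23 (43.5%, against 3.46% of genes) a match lay upstream of the start. The stretches below are printed for 6 members that stand for different arms of the response and recur in the results, with each match or run of overlapping matches in capitals on the gene's own strand (TTTC in place of GAAA where the match lies on the opposite strand).
Isg15, chr4:156200855-156200916, minus strand: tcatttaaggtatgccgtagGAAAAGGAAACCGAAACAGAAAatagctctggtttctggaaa
Ifit1, chr19:34640765-34640833, plus strand: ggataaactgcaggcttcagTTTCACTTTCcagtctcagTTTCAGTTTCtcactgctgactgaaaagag
Ifit3, chr19:34583353-34583436, plus strand: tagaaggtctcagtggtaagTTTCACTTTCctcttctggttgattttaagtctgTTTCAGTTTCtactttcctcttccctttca
Rsad2, chr12:26456543-26456592, minus strand: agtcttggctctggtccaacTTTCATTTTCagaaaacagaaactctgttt
Bst2, chr8:71537567-71537622, minus strand: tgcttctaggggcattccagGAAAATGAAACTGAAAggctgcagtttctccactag
Oas1a, chr5:120907526-120907565, minus strand: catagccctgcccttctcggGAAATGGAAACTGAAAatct
Isg15 held 3 overlapping matches, Ifit1 and Ifit3 held 2 apart from each other, Bst2 and Oas1a held 2 that overlap, and Rsad2 held 1. The windows of Ifit2, Irf7, Irf9, Oasl1, Oasl2, Ifi44, Xaf1, Cmpk2 and Ifi47 did not hold these letters. A match is a description of sequence, and no binding was measured.

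The 29 members together took a larger part of the RNA in immune and stromal host cells than in tumor cells. Levels are CPM: all UMIs of a gene in a class were added up and divided by the class total, with exact 95% Poisson intervals that cover counting error only and neither the spread between cells nor that between mice. Monocytes stood highest, at 13541 CPM in the iIRE library and 11199 CPM in the control library, and the tumor cell classes lowest, between 1667 and 2010 CPM. Between these lay neutrophils (10738 CPM iIRE, 5395 CPM control), endothelial cells (8823 CPM in iIRE and 6132 CPM in control), host fibroblasts (6087 CPM in iIRE and 2952 CPM in control), macrophages (5548 CPM in iIRE and 4092 CPM in control), cells of the T or NK lineage (4537 CPM in iIRE and 2510 CPM in control), osteoclast-like cells (3884 CPM in iIRE and 2294 CPM in control) and dendritic cells (3122 CPM in iIRE and 3712 CPM in control). A few members carried most of this sum: Ifi27l2a, Ifitm3 and Bst2 held 81.9% of member UMIs in iIRE macrophages and 76.3% in control macrophages. Ifitm3, Bst2 and Isg15 held 88.4% in iIRE tumor cells outside the hypoxia-high class described below and 90.3% in the same class of the control library.

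**Figure D1:**
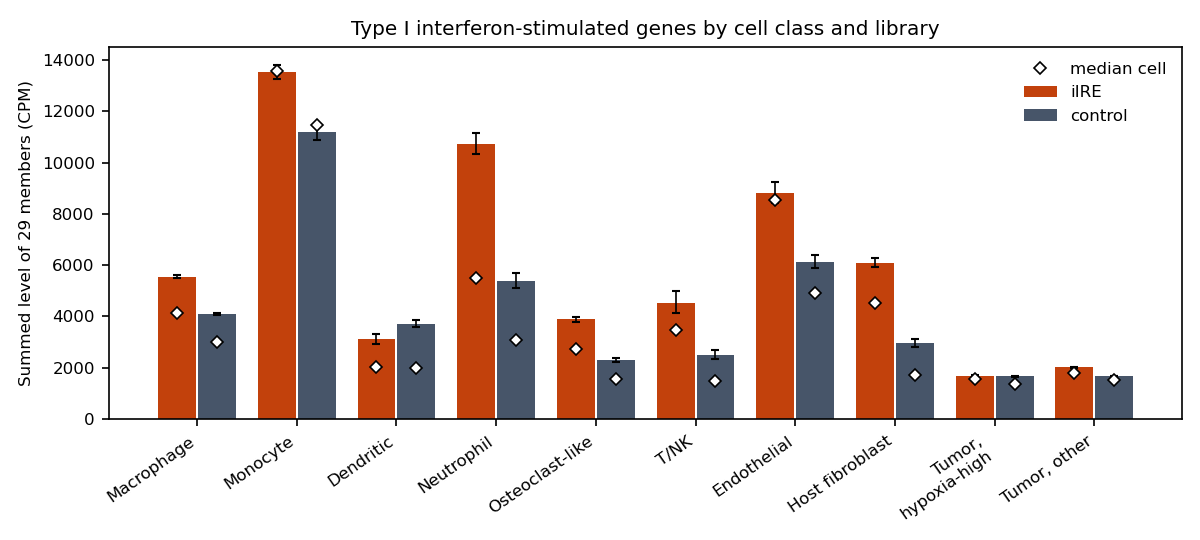
Summed level of the 29 members in CPM (linear axis from 0) in 10 cell classes, with the iIRE bar left of the control bar in each class, exact Poisson intervals as error bars and the median of single cells as diamonds. The iIRE bar is the higher in every class but dendritic cells, and in hypoxia-high tumor cells the bars are nearly level (1691 CPM in iIRE and 1667 CPM in control).

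Differences are given as the log2 ratio of iIRE over control after 10 CPM were added to each level, and a member was called higher or lower past 1.2-fold, the size used in the study's methods, if the class held 50 or more of its UMIs (iIRE and control added). The intervals given for ratios are exact for the 2 counts and leave out the added 10 CPM, so they apply to abundant genes. With this scale the summed level was higher in the iIRE library in neutrophils (log2 ratio 0.99, interval 0.90 to 1.09), macrophages (0.44, 0.42 to 0.46) and monocytes (0.27, 0.22 to 0.33), and it was also higher in host fibroblasts (1.04), T or NK cells (0.85), osteoclast-like cells (0.76) and endothelial cells (0.52). In dendritic cells the log2 ratio of the sum was -0.25 (interval -0.35 to -0.15), which is within 1.2-fold, and the median dendritic cell held 2030 CPM in the iIRE library and 1980 CPM in the control library. In tumor cells the log2 ratio was 0.02 in the hypoxia-high class and 0.26 in the other class, which is just under 1.2-fold. Without the 3 highest members these ratios were -0.30 in the hypoxia-high class and 0.50 in the other class.

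**Figure D2:**
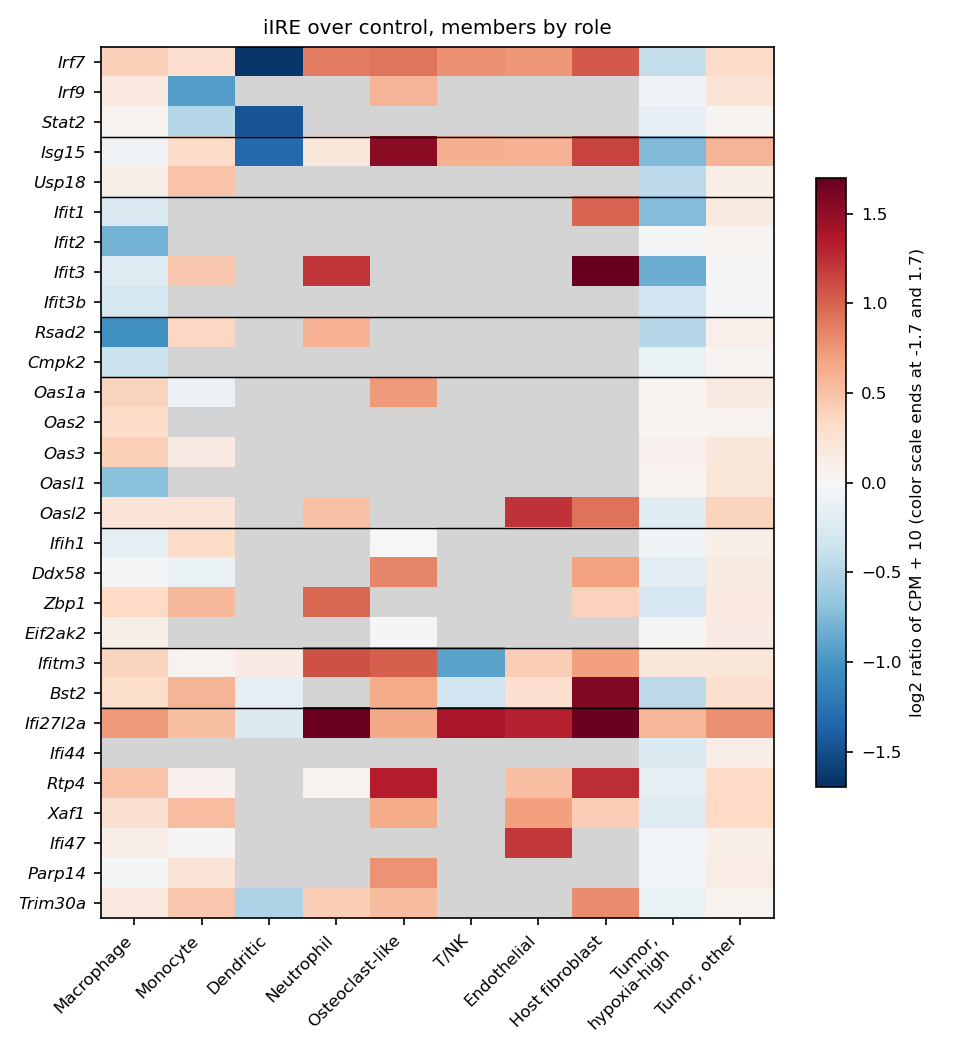
Log2 ratio of CPM + 10, iIRE over control, for each member (rows, grouped by role) in each cell class (columns), with the color scale ending at -1.7 and 1.7. Host fibroblasts, endothelial cells and osteoclast-like cells hold higher members, macrophages hold both directions (9 higher, 5 lower), and the tumor cell classes differ in direction for Isg15, Bst2 and Irf7.

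In macrophages (889 iIRE cells and 894 control cells, with medians of 6013 UMIs in iIRE and 6934 UMIs in control), the most abundant members were higher after iIRE, while 5 less abundant ones, led by Rsad2 and Ifit2, were lower. Of 28 members with enough UMIs, 9 were higher and 5 were lower, against 10.3% of all genes higher and 5.1% lower, and 14 stayed within 1.2-fold. The median log2 ratio of the members was 0.11, beside 0.04 for all genes tested. Without its 3 highest members the macrophage sum had a log2 ratio of 0.05. Ly6c2, a marker of monocytes, stood at 78.4 CPM in iIRE macrophages and 19.3 CPM in control macrophages, the 8 monocyte markers summed to 596 CPM in iIRE and 475 CPM in control, and the part of this in the member levels was not tested.

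Among the regulators, Irf7 encodes the transcription factor that amplifies interferon-alpha production, and it stood at 117 CPM in iIRE macrophages and 85.8 CPM in control macrophages (log2 ratio 0.41, interval 0.29 to 0.61). The STAT2 and IRF9 proteins are parts of ISGF3. Stat2 was at 19.3 CPM in iIRE and 18.1 CPM in control macrophages, and Irf9, which recognizes the DNA, at 35.5 CPM in iIRE and 30.6 CPM in control. Both stayed within 1.2-fold.

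The genes of membrane proteins that restrict virus entry and release were higher. Ifitm3, which hinders fusion of viruses with endosomes, was at 1416 CPM in iIRE macrophages and 1087 CPM in control macrophages (log2 ratio 0.38, interval 0.34 to 0.43). Bst2, or tetherin, which holds budding particles at the cell surface, was at 679 CPM in iIRE and 553 CPM in control macrophages (0.29, 0.23 to 0.36). The member with the largest ratio in this class was Ifi27l2a, a small hydrophobic protein of the interferon-alpha-inducible family, with 2448.5 CPM in iIRE and 1483 CPM in control macrophages (0.72, 0.69 to 0.76). After thinning every cell to 2000 UMIs, which left 857 iIRE and 859 control cells, it was seen in 80.6% of iIRE macrophages (exact binomial interval 77.8 to 83.2%) and 71.3% of control macrophages (68.1 to 74.3%). Without thinning it was seen in 88.9% of iIRE and 89.0% of control macrophages. The thinned shares depend on the level and do not by themselves show that more cells carried the gene. At the same thinning Ifi27l2a was seen in 14.4% of iIRE tumor cells outside the hypoxia-high class (13.7 to 15.1%) and 7.59% of those in the control library (7.01 to 8.21%).

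Of the OAS family, whose enzymes make the short oligoadenylates that activate RNase L, Oas1a, Oas2 and Oas3 were higher. Oas1a was at 62.3 CPM in iIRE and 45.7 CPM in control macrophages (log2 ratio 0.37), Oas2 at 18.7 CPM in iIRE and 13.0 CPM in control (0.32), and Oas3 at 16.8 CPM in iIRE and 10.3 CPM in control (0.40). Oasl1, which in mouse represses translation of Irf7 mRNA, went the other way, with 17.2 CPM in iIRE and 33.9 CPM in control macrophages (-0.69, or -1.33 to -0.64 without the added CPM). Oasl2 was within 1.2-fold at 46.8 CPM in iIRE and 38.7 CPM in control. Rtp4, a chaperone-like protein with antiviral activity, was higher at 81.8 CPM in iIRE and 55.5 CPM in control macrophages (0.49). Zbp1, the sensor of Z-form nucleic acid that can trigger necroptosis, was also higher, at 50.8 CPM in iIRE and 37.96 CPM in control (0.34). The RNA sensors Ifih1 (MDA5) and Ddx58 (RIG-I) and the RNA-activated kinase Eif2ak2 (PKR) stayed within 1.2-fold, as did Trim30a, Parp14, Xaf1 and Ifi47.

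The lower members include genes, such as Rsad2 and Ifit2, that are known to be induced early and also directly by IRF3, the factor that sensors of nucleic acid activate. Rsad2, or viperin, which makes a chain-terminating nucleotide against viral polymerases, held 168 UMIs in iIRE macrophages and 458 UMIs in control macrophages, or 28.0 CPM in iIRE and 68.5 CPM in control (log2 ratio -1.05, or -1.55 to -1.03 as an interval without the added CPM). Ifit2, an IFIT protein that binds viral RNA, was at 12.7 CPM in iIRE and 29.4 CPM in control macrophages (-0.80). Cmpk2, the mitochondrial nucleotide kinase next to Rsad2 in the genome, was at 8.49 CPM in iIRE and 13.8 CPM in control (-0.36), and Ifit3b at 4.66 CPM in iIRE and 8.07 CPM in control (-0.30). Isg15, the ubiquitin-like modifier, was at 132 CPM in iIRE and 138 CPM in control macrophages (-0.06), and Usp18, the protease that removes it and also damps receptor signaling, at 19.8 CPM in iIRE and 17.8 CPM in control. Ifit1 and Ifit3 stayed within 1.2-fold, at -0.24 and -0.23.

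**Figure D3:**
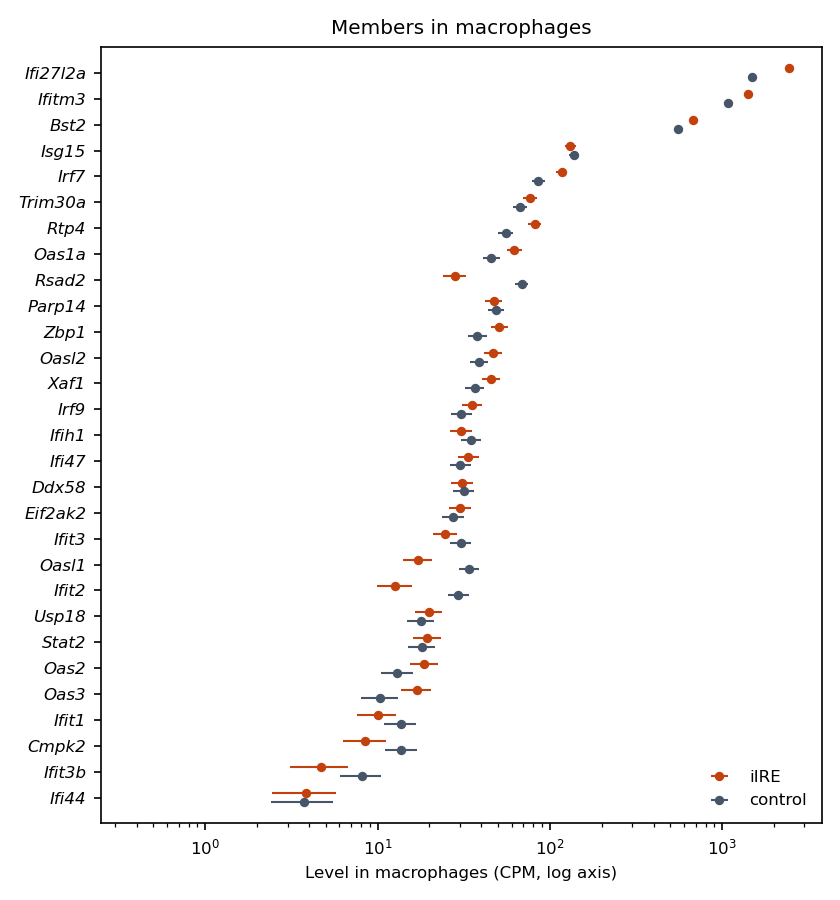
Level of each member in macrophages in CPM (log axis), with the iIRE point above the control point and exact Poisson intervals as bars. Most iIRE points lie to the right of the control points, while those of Rsad2 (28.0 CPM in iIRE and 68.5 CPM in control), Ifit2 and Oasl1 lie to the left.

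A few cells held much of the RNA of the early-induced members. For a set of 8 members (Isg15, Ifit1, Ifit2, Ifit3, Ifit3b, Rsad2, Cmpk2 and Oasl1, put together after their values were seen), iIRE macrophages held 1424 UMIs and control macrophages 2246 UMIs. Without thinning, 37.0% of iIRE macrophages and 36.4% of control macrophages had at least 1 of these UMIs. The 8 highest cells, about 1% of the class, held 26.4% of the set's UMIs in iIRE macrophages and 46.1% in control macrophages. Rsad2 itself was seen in 3.501% of iIRE macrophages (interval 2.37 to 4.96%) and 5.59% of control macrophages (4.15 to 7.34%) after thinning to 2000 UMIs.

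Some of these cells carried Ifnb1, the gene of interferon-beta. Ifnb1 had 23 UMIs in 3 iIRE macrophages and 47 UMIs in 5 control macrophages. The control macrophage with the most, 25 UMIs of Ifnb1, also had the most UMIs of the 8 members (290 UMIs, 97 of them Rsad2) and ranked 1 of 894. The next control cells held 10 Ifnb1 UMIs with 53 of the set (rank 7), 8 with 244 (rank 2), 3 with 47 (rank 9) and 1 with 2 (rank 115). In the iIRE library 11 Ifnb1 UMIs came with 5 UMIs of the set (rank 44 of 889), 10 with 12 (rank 28) and 2 with 6 (rank 38). These counts are far below the highest of the control cells with Ifnb1. Their ranks are still high for a class in which 37.0% of cells held any UMI of the set. All these ranks use unthinned counts, so they also depend on the depth of a cell. In the order above, the control cells held 12006, 4370, 7647, 7112 and 11513 UMIs in all, beside a class median of 6934 UMIs. The iIRE cells held 9318, 5783 and 3712 UMIs, beside a class median of 6013 UMIs. Without the cells that held an Ifnb1 UMI, 12 members were higher and 2 lower in macrophages (886 iIRE and 889 control cells), Isg15 stood at 130 CPM in iIRE and 104 CPM in control macrophages (log2 ratio 0.31), and only Rsad2 (26.9 CPM in iIRE and 48.7 CPM in control, -0.67) and Ifit2 (12.7 CPM in iIRE and 21.1 CPM in control, -0.45) were still lower. This selection of cells was made after the values were seen, and the share of all genes was not computed for it. It left out the control cells of ranks 1 and 2, so higher ratios for the 8 members follow from the choice of cells.

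**Figure D4:**
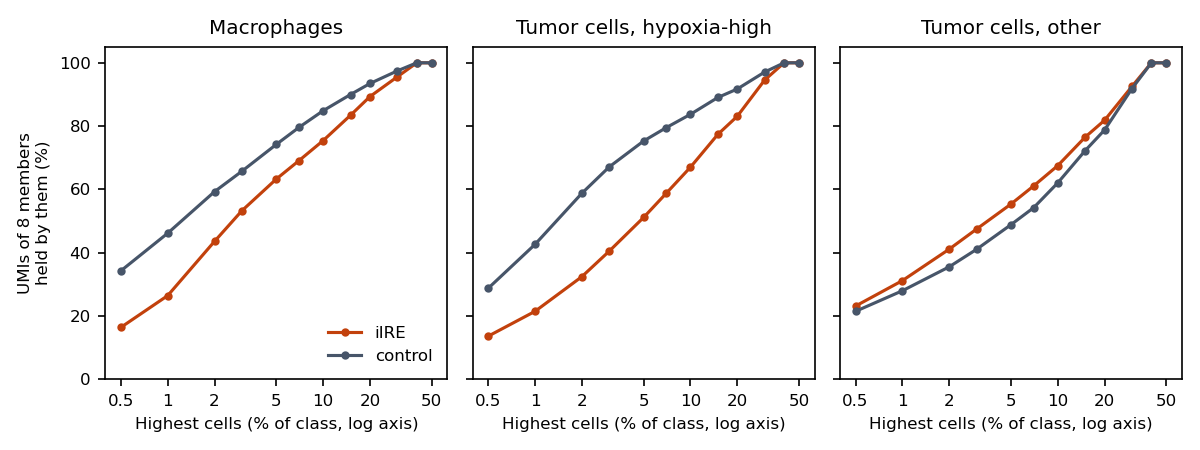
Share of the UMIs of the 8 members (percent) held by the highest cells of a class (percent of the class, log axis) in macrophages, hypoxia-high tumor cells and other tumor cells, as lines for the iIRE and control libraries. At 1% of cells the iIRE line lies below the control line in macrophages (26.4% in iIRE, 46.1% in control) and hypoxia-high tumor cells, and above it in other tumor cells.

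Monocytes, which are recruited from blood and were the class with the highest member sum, had 11 of 21 members higher and 2 lower, against 20.7% of all genes higher and 20.4% lower (118 iIRE cells and 70 control cells). Ifitm3 was their most abundant member, at 5078 CPM in iIRE and 4868 CPM in control monocytes, and stayed within 1.2-fold. Ifi27l2a was at 4907.5 CPM in iIRE and 3438 CPM in control monocytes (log2 ratio 0.51, interval 0.42 to 0.60). The regulators split, since Irf7 was higher (531 CPM in iIRE and 433 CPM in control, 0.29) while Irf9 (35.6 CPM in iIRE and 77.0 CPM in control, -0.93) and Stat2 (40.1 CPM in iIRE and 60.2 CPM in control, -0.49) were lower. Irf9 rested on 24 UMIs in iIRE and 32 UMIs in control, and with 1 more class marker required 0 members were lower. Thinned to 2000 UMIs a cell, 5 members were higher and 0 lower. Isg15 was at 614 CPM in iIRE and 489 CPM in control monocytes (0.32), Zbp1 at 232 CPM in iIRE and 154 CPM in control (0.56), and Bst2 at 662 CPM in iIRE and 438 CPM in control (0.58). Rsad2, lower in macrophages, was at 60.8 CPM in iIRE and 45.7 CPM in control monocytes (0.35), with a counting interval of -0.41 to 1.28. The median log2 ratio of the 21 members was 0.29, beside 0.00 for all genes tested. Markers of fibroblasts and pericytes summed to 2539 CPM in iIRE monocytes and 482 CPM in control monocytes, and their part in the member levels was not tested.

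Neutrophils had the largest ratio of the member sum among the myeloid classes, with 8 of 10 members higher and 0 lower, against 28.9% of all genes higher and 26% lower (148 iIRE cells and 141 control cells, with medians of 1341 UMIs in iIRE and 1337 UMIs in control). Ifi27l2a was at 3684 CPM in iIRE and 1156 CPM in control neutrophils (log2 ratio 1.66, interval 1.48 to 1.86). Ifitm3 was at 2523 CPM in iIRE and 1191 CPM in control (1.08, 0.88 to 1.28). Thinned to 1000 UMIs, which kept every cell, Ifi27l2a was seen in 56.8% of iIRE neutrophils (interval 48.4 to 64.9%) and 41.1% of control neutrophils (32.9 to 49.7%). Irf7 was at 609 CPM in iIRE and 329 CPM in control neutrophils (0.87, 0.49 to 1.29), and Ifit3 at 280 CPM in iIRE and 115 CPM in control (1.21, 0.65 to 1.96). Isg15 reached its highest level of any class here, with 1214 CPM in iIRE and 1061 CPM in control neutrophils, and stayed within 1.2-fold (0.19). Rsad2 was at 202 CPM in iIRE and 130 CPM in control (0.59, -0.03 to 1.31). RNA of other cell types also differed in this class: acinar genes summed to 679 CPM in iIRE and 153 CPM in control neutrophils, fibroblast genes to 1029 CPM in iIRE and 7666 CPM in control, and their part in the member levels was not tested.

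Dendritic cells, which take up and present antigen, had 0 of 7 members higher and 4 lower, against 18.3% of all genes higher and 25.5% lower, in 41 iIRE cells and 102 control cells. Irf7 was at 55.3 CPM in iIRE and 196 CPM in control dendritic cells (log2 ratio -1.65, interval -2.61 to -1.12). Isg15 was at 123 CPM in iIRE and 321 CPM in control (-1.32, -1.90 to -0.90), and Stat2 at 15.4 CPM in iIRE and 60.2 CPM in control (-1.47). Trim30a, a ubiquitin ligase, was at 55.3 CPM in iIRE and 84.1 CPM in control (-0.53), and its counting interval reached 0.16. The abundant members were within 1.2-fold, with Ifitm3 at 1632 CPM in iIRE and 1478 CPM in control dendritic cells (0.14) and Ifi27l2a at 722 CPM in iIRE and 861 CPM in control (-0.25). Without the 3 highest members the log2 ratio of the sum was -1.06. Cells with 5 or more members after thinning to 2000 UMIs numbered 2 of 41 in the iIRE library and 19 of 100 in the control library. Markers used for the gate also differed, as Fscn1, a marker of mature dendritic cells, stood at 707 CPM in iIRE and 1449 CPM in control cells, Ccr7 at 2391 CPM in iIRE and 1959 CPM in control, and Clec9a, a marker of cross-presenting dendritic cells, at 76.8 CPM in iIRE and 119 CPM in control. The part of the class make-up in the member levels was not tested.

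The other host classes held fewer cells and mostly higher members. All 13 members tested in host fibroblasts were higher, against 24.6% of all genes, in 69 iIRE cells and 42 control cells. Ifit3 was at 85.9 CPM in iIRE and 11.4 CPM in control fibroblasts (log2 ratio 2.17, from 67 UMIs in iIRE and 5 in control), Ifi27l2a at 1055 CPM in iIRE and 325 CPM in control (1.67), Bst2 at 602 CPM in iIRE and 196 CPM in control (1.57), Isg15 at 636 CPM in iIRE and 282 CPM in control (1.14) and Irf7 at 123 CPM in iIRE and 54.6 CPM in control (1.04). All 9 tested in endothelial cells were higher, against 20.5% of all genes, in 27 iIRE and 30 control cells. For Ifi27l2a among them, 1 cell held 77.4% of 53 UMIs in iIRE and 1 cell held 47.2% of 36 UMIs in control. That gene was seen in 18.5% of iIRE and 23.3% of control endothelial cells. Endothelial Bst2 was at 1455 CPM in iIRE and 1191 CPM in control cells (0.29), and Ifi47, an interferon-inducible GTPase, at 226 CPM in iIRE and 92.3 CPM in control (1.21). RNA of other cell types moved with this class, as fibroblast markers summed to 1069.5 CPM in iIRE and 127 CPM in control endothelial cells and monocyte markers to 113 CPM in iIRE and 17.3 CPM in control. In osteoclast-like cells, which express the bone-resorption program, 12 of 14 members were higher and 0 lower, against 20.6% and 14% of all genes. Their Isg15 was at 96.3 CPM in iIRE and 26.7 CPM in control cells (1.54), and their Rtp4 at 77.9 CPM in iIRE and 24.8 CPM in control (1.34). The 9 markers of this class summed to 20256 CPM in iIRE and 30668 CPM in control osteoclast-like cells. In T or NK cells, 3 of 5 members were higher and 2 lower, against 24.8% and 27.9% of all genes, from 28 iIRE cells and 79 control cells. Ifi27l2a was at 2731 CPM in iIRE and 1033 CPM in control T or NK cells (1.39), while Ifitm3 was at 257 CPM in iIRE and 491 CPM in control (-0.91). That Ifitm3 value rested on few cells: 1 cell held 84.0% of 25 UMIs in iIRE and 1 cell held 58.3% of 180 UMIs in control, and the gene was seen in 17.9% of iIRE and 8.86% of control cells. Fibroblast markers summed to 113 CPM in iIRE T or NK cells and 2264 CPM in control T or NK cells. The part of these markers in the member levels of the endothelial, osteoclast-like and T or NK classes was not tested.

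In tumor cells, the members sat at a lower level, and the ratio of iIRE over control had opposite signs in hypoxia-high and in other cells for Isg15, Bst2 and Irf7. Tumor cells were split by the summed level of 21 hypoxia genes, none of them a member, at 0.510% of UMIs, which placed 21.8% of iIRE tumor cells and 28.5% of control tumor cells in the hypoxia-high class. Of 22633 tumor cells, 3857 (17.04%) lay within 10% of the cut, so the classes are ranges of a continuous value. Ifitm3 was the leading member in both classes, at 1302 CPM in iIRE and 1134 CPM in control hypoxia-high cells and at 1540 CPM in iIRE and 1337 CPM in control in the other cells.

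In hypoxia-high tumor cells 1 of 29 members was higher and 9 were lower, against 1.78% and 1.18% of all genes (2580 iIRE cells and 3079 control cells). Isg15 was at 53.7 CPM in iIRE and 97.2 CPM in control hypoxia-high cells (log2 ratio -0.75, or -0.94 to -0.77 without the added CPM), and Bst2 at 137 CPM in iIRE and 190 CPM in control (-0.45, -0.53 to -0.42). Irf7 was at 16.2 CPM in iIRE and 24.9 CPM in control (-0.41). Among the IFIT genes, Ifit1 was at 1.67 CPM in iIRE and 9.38 CPM in control and Ifit3 at 1.09 CPM in iIRE and 9.87 CPM in control, and both were lower on the scale with 10 CPM added (-0.73 and -0.84). Rsad2 was at 0.417 CPM in iIRE and 4.63 CPM in control, Ifit3b, Usp18 and Zbp1 were also lower, and Ifi27l2a alone was higher, at 30.02 CPM in iIRE and 16.9 CPM in control hypoxia-high cells (0.57). With 1 CPM added in place of 10, 2 members were higher and 16 lower, against 8.89% and 5.13% of all genes on that scale. The 8 pan-myeloid genes summed to 74.1 CPM in iIRE and 62.5 CPM in control hypoxia-high cells. Ifi27l2a there equalled 1.23% (iIRE) and 1.14% (control) of its macrophage level. The pan-myeloid gene Tyrobp equalled 0.833% and 0.638%, and the macrophage gene C1qa 0.431% and 0.375%. The part of myeloid RNA in the Ifi27l2a level was not tested.

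In the other tumor cells (9235 iIRE cells and 7739 control cells), 7 of 29 members were higher and 0 lower, against 1.24% and 0.706% of all genes. Isg15 was at 66.8 CPM in iIRE and 41.5 CPM in control cells (log2 ratio 0.58), Bst2 at 169 CPM in iIRE and 137 CPM in control (0.29), and Irf7 at 13.7 CPM in iIRE and 9.06 CPM in control (0.31). Ifi27l2a was at 45.4 CPM in iIRE and 22.3 CPM in control (0.78), Oasl2 at 22.4 CPM in iIRE and 14.9 CPM in control (0.38), Xaf1, an inhibitor of the anti-apoptotic protein XIAP, at 21.1 CPM in iIRE and 14.5 CPM in control (0.34), and Rtp4 at 6.89 CPM in iIRE and 3.35 CPM in control (0.34). With 1 CPM added, 20 members were higher and 0 lower, against 6.7% and 2.76% of all genes on that scale. Myeloid RNA was also higher in these cells, with 8 pan-myeloid genes at 118 CPM in iIRE and 81.2 CPM in control cells and C1qa, a complement gene of macrophages, at 29.02 CPM in iIRE and 21.9 CPM in control. C1qa in this class equalled 0.728% (iIRE) and 0.486% (control) of its macrophage level. C1qb equalled 0.693% in iIRE and 0.488% in control, and the pan-myeloid gene Tyrobp 1.27% in iIRE and 0.814% in control. Ifi27l2a equalled 1.86% in iIRE and 1.504% in control, near the Tyrobp share. Oas1a equalled 3.38% in iIRE and 2.00% in control, and Isg15 50.8% in iIRE and 30.1% in control. The part of RNA from other cells in these differences was not tested.

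Within each library, hypoxia-high cells were also set against the other tumor cells. These ratios rearrange the same levels as the iIRE over control ratios above. For each member, the iIRE value minus the control value therefore equals the difference between its iIRE over control ratios in hypoxia-high and other cells. That difference restates those ratios and is not a separate result. In the iIRE library 0 members were higher and 3 were lower in hypoxia-high cells (against 4.95% and 11.2% of all genes), while in the control library 15 were higher and 0 lower (against 5.11% and 11.2%). Isg15 had a log2 ratio of hypoxia-high over other of -0.27 in the iIRE library and 1.06 in the control library. Bst2 had -0.29 in the iIRE library and 0.45 in the control library, and Irf7 had 0.15 in iIRE and 0.87 in control. Ifit3 had -0.05 in the iIRE library and 0.77 in the control library, and Ifit1 had -0.13 in iIRE and 0.75 in control. Ifitm3, with -0.24 in each library, did not share this pattern. The iIRE value was below the control value for 29 of 29 members, with a difference of -1.33 for Isg15 and of only -0.0041 for Ifitm3, and it was below for 51.1% of the 13888 genes with 50 or more tumor cell UMIs in each library. The sum over members gave -0.25 in iIRE and -0.01 in control. The control value depended on how the sum was formed, with 0.57 without the 3 highest members and -0.16 by the median cell.

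**Figure D5:**
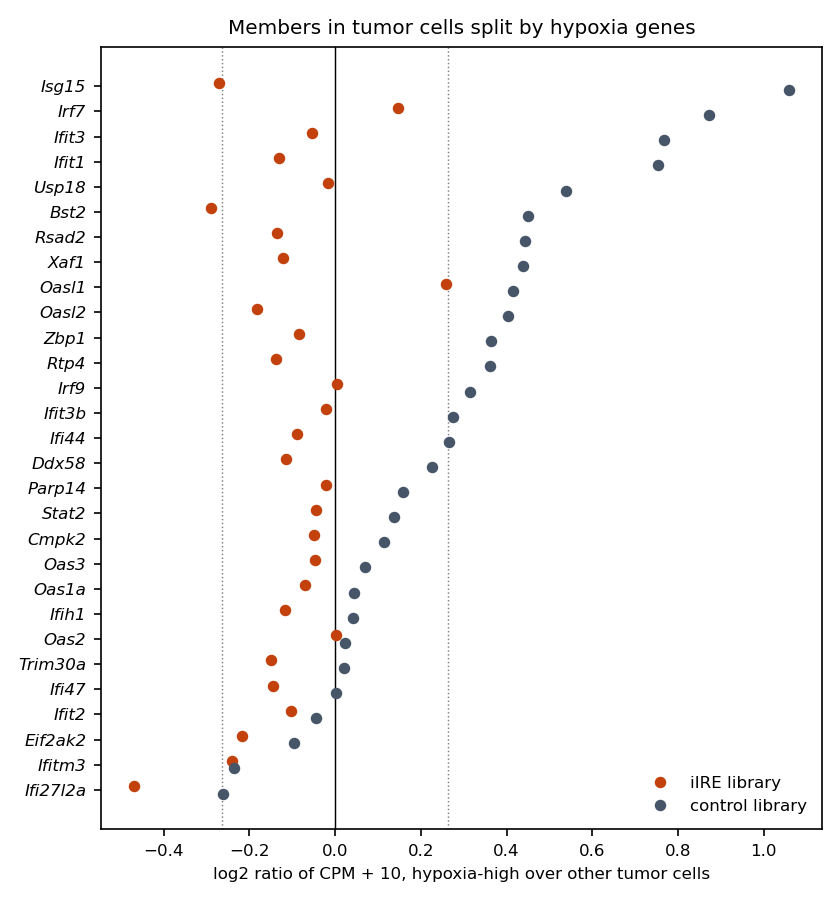
Log2 ratio of CPM + 10 of hypoxia-high over other tumor cells for each member, with the iIRE point above the control point. Control points reach 1.06 (Isg15), while iIRE points lie near or below 0, with Irf7 at 0.15 and Oasl1 at 0.26 as the highest of them.

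The UMIs of the early-induced members were concentrated in few hypoxia-high cells of the control library. The 8 members held 2255 UMIs in iIRE hypoxia-high cells and 5750 UMIs in control hypoxia-high cells. The highest 1% of cells (25 iIRE and 30 control cells) held 21.4% of these in the iIRE library and 42.6% in the control library, and the highest single cell held 45 UMIs in iIRE and 209 UMIs in control. Thinned to 2000 UMIs, Isg15 was seen in 8.79% of iIRE hypoxia-high cells (interval 7.72 to 9.95%) and 9.98% of control hypoxia-high cells (8.94 to 11.1%), and in 9.93% of the other iIRE tumor cells (9.32 to 10.6%) and 8.18% of the other control tumor cells (7.57 to 8.81%). The shares of cells thus differed by less than the levels.

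The class with the highest level differed between members. By the mean of the iIRE and control CPM, 10 members were highest in neutrophils, among them Isg15, Ifit1, Ifit3, Oasl2 and Rsad2. A further 9 were highest in monocytes, among them Irf7, Ifitm3, Ifi27l2a and Zbp1. Another 9 were highest in endothelial cells, among them Bst2, Stat2, Xaf1 and Ifi47, and Irf9 was highest in T or NK cells. No UMI minimum was applied to this order, and the share of all genes highest in each class was not computed. Some places rested on few UMIs, such as Irf9 in T or NK cells (7 UMIs in iIRE and 19 in control) and endothelial Stat2 (22 in iIRE and 20 in control). Over the 20 profiles of class and library, Irf7 followed the mean of the other members most closely (Pearson r = 0.96) and Ifi44 (0.38) and Bst2 (0.41) least. Of 15982 genes outside the list, those most alike to the mean were Slfn5 (0.92), Rasgrp2 (0.88), Myd88 (0.87), Trim30d (0.87), Adar (0.87), Entpd1 (0.86), Sp100 (0.84), Bst1 (0.84), Ddx3y (0.84) and Fry (0.84). These profiles share libraries and the split of host from tumor cells, which the Y-linked Ddx3y marks by itself, and they are a description. Between single macrophages thinned to 2000 UMIs (857 iIRE and 859 control cells, each set from 1 library), Isg15 and Ifit3 correlated at 0.49 in the iIRE library and 0.48 in the control library, and Ifit3 and Rsad2 at 0.28 in iIRE and 0.56 in control. Isg15 and Ifi27l2a correlated at 0.20 in iIRE and 0.11 in control.

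The genes upstream of the members were read from lists of the pathway, and their counts in macrophages stand against the same 10.3% of all genes higher and 5.1% lower. The 18 genes of type I interferons gave 25 UMIs in iIRE macrophages and 47 UMIs in control macrophages, and at most 3 UMIs in any other class and library. Interferon-gamma, which can also induce several members, had 9 UMIs in iIRE T or NK cells and 9 in control T or NK cells. Of 9 receptor and kinase genes with enough UMIs in macrophages, 0 were higher and 1 was lower (Ifnar1, 86.6 CPM in iIRE and 107 CPM in control macrophages, log2 ratio -0.27). Of 14 genes of nucleic acid sensing in macrophages, 2 were higher and 1 lower. Of 7 inhibitors of the response there, 2 were higher and 1 lower, the lower one being Socs3, a suppressor of cytokine receptors, with 304 CPM in iIRE and 431 CPM in control macrophages (-0.49). Of 36 further ISGs outside the list, 10 were higher in macrophages and 0 lower, led in abundance by Ly6e at 1914 CPM in iIRE and 1209 CPM in control (0.66). Of 18 genes that interferon-gamma governs more strongly, 6 were higher and 1 lower there, and Cxcl10, a chemokine for T cells, was at 198 CPM in iIRE and 207 CPM in control macrophages.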

How the data were processed

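Gene expression was measured by 10x 5′ single-cell RNA-seq in 1 iIRE and 1 control library. The deposited counts are raw UMI counts per gene and barcode, made by the authors with Cell Ranger and STAR on mm10 (7.0.1 in the file header; the study's methods name another version), with both libraries in 1 matrix and 0 columns of other samples. Barcodes were assigned to libraries by their ending and the library number in the labels.

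Following the study's methods, a cell needed 200 genes, 1000 UMIs and a complexity (log10 genes over log10 UMIs) of 0.7 or more, with no more than 5% of UMIs mitochondrial and 5% from hemoglobin. DoubletFinder was not run. Instead, cells were scored by the share of simulated doublets among 50 neighbors, and 2836 iIRE cells (15.1%) and 2538 control cells (14.2%) were removed. Classes were set by detected markers, for example 6 of 12 macrophage markers with 5 of 8 pan-myeloid and at most 2 of 9 tumor cell markers. The remaining cells were in no class. UMIs were summed per class and library (Python 3.11.15, numpy 2.4.6, scipy 1.17.1, pandas 2.3.3) and the calculation was tested on simulated data. With 1 library per group no test was made. The precision is that of the counts: a count of 0 allows up to 3 UMIs, which is 0.500 CPM in iIRE and 0.448 CPM in control macrophages. In these 5′ libraries 1 molecule gives 1 UMI whatever the transcript length.

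The members and the gene lists were chosen with earlier results of these data known. Named in a class were members among the 8 highest by CPM, those with the 5 highest and 5 lowest ratios, and, from pathway lists, the 4 highest genes; pathway genes outside the 4 highest, the dendritic markers and the genes chosen for Ifnb1 cells were picked after their values were seen. Alternatives covered doublets, the mitochondrial limit, gates, the added CPM, scaling, averaging, members, depth, filters, fold and the hypoxia cut. Coordinates were from GENCODE vM21 on mm10 and promoter windows from RefSeq on GRCm38.p6. Some items of the pathway and of the tumor line are not reported here.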

Additional observations from a re-analysis of the deposited data

Results flagged for a closer look

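Hypoxia-high tumor cells were set against other tumor cells, and the 4 myeloid classes against each other. Within these sets 5 members were higher in the iIRE library than in the control library in 1 class or more and lower in another, each past 1.2-fold. Over all 10 classes, 11 members were higher in some and lower in others (these 5 with Ifit1, Ifit3, Irf9, Ifitm3, Usp18 and Zbp1). The share of all genes called in both directions was not computed for either count. Such calls can be common, as in monocytes alone 20.7% of all genes were called higher and 20.4% lower. With 1 library per group these differences between classes were not tested, and all values are log2 ratios of iIRE over control. Isg15 was at -0.75 in hypoxia-high tumor cells and 0.58 in other tumor cells, and at 0.32 in monocytes and -1.32 in dendritic cells. Irf7 was at -0.41 in hypoxia-high tumor cells and 0.31 in other tumor cells, and at 0.41 in macrophages, 0.29 in monocytes, -1.65 in dendritic cells and 0.87 in neutrophils. Rsad2 was at -1.05 in macrophages, 0.35 in monocytes and 0.59 in neutrophils. The counting intervals of Rsad2 were -0.41 to 1.28 in monocytes and -0.03 to 1.31 in neutrophils, so both take in either sign. In control macrophages 1 cell held 21.2% of 458 Rsad2 UMIs. Bst2 was at -0.45 in hypoxia-high tumor cells and 0.29 in other tumor cells. Trim30a was at 0.46 in monocytes, -0.53 in dendritic cells and 0.42 in neutrophils. Its counting interval in dendritic cells also took in either sign.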

How the results depend on the processing

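No paired analysis was possible because each group was 1 library. All values here are log2 ratios of the member sum, iIRE over control, unless counts of members or the split of tumor cells (hypoxia-high over other) are named, and the cause of each change was not tested. Of 61 such ratios under alternatives, 34 stayed within their counting error and 57 kept their direction; of 22 values of the split, 8 stayed within counting error and 16 kept their direction; of 122 counts, 103 stayed within 1.5 times. The ranges were 0.05 to 0.48 in macrophages, 0.17 to 0.41 in monocytes, -1.06 to 0.04 in dendritic cells, 0.66 to 1.49 in neutrophils, -0.30 to 0.16 in hypoxia-high and 0.23 to 0.50 in other tumor cells, and for the split -0.36 to -0.17 in iIRE and -0.16 to 0.57 in control. Without doublet removal, monocytes were at 0.17, neutrophils at 0.73 and the control split at 0.0079. With 1 more class marker, monocytes were at 0.41 with 0 lower members, dendritic cells at -0.55, hypoxia-high cells at -0.016 and the iIRE split at -0.29. With 1 CPM added, hypoxia-high cells had 2 members higher and 16 lower, and other tumor cells 20 higher. Scaled to the median gene, macrophages were at 0.40, other tumor cells at 0.25, and the split at -0.20 in iIRE and 0.030 in control. By the mean of single cells, monocytes were at 0.19, neutrophils at 0.66 with 1 lower member, hypoxia-high cells at 0.048 and the split at -0.18 in iIRE and 0.024 in control. Without the 3 highest members, macrophages were at 0.051, dendritic cells at -1.06, neutrophils at 0.74, hypoxia-high cells at -0.30, other tumor cells at 0.50 and the split at -0.23 in iIRE and 0.57 in control. Thinned to 2000 UMIs, monocytes were at 0.18 with 5 members higher and 0 lower, dendritic cells had 2 lower, neutrophils (19 and 14 cells left) were at 1.49 with 2 higher, and the split was -0.17 in iIRE and 0.041 in control. With no UMI minimum, dendritic cells had 19 lower and neutrophils 24 higher, and under that setting a gene with very few UMIs can pass 1.2-fold by counting error. Shares of all genes were computed only for the main setting and for 1 CPM added in tumor cells, so the other counts of members here have no background. At 1.5-fold, macrophages had 1 higher and 3 lower, monocytes 0 and 1, hypoxia-high cells 0 and 3, and other tumor cells 1 higher. With the highest 10% as hypoxia-high, the split was -0.36 in iIRE and 0.056 in control. The next alternatives were chosen after seeing the data. By the median cell, dendritic cells were at 0.036, neutrophils at 0.83, hypoxia-high cells at 0.16, other tumor cells at 0.23 and the split at -0.23 in iIRE and -0.16 in control. Thinned to 1000 UMIs, macrophages were at 0.40, monocytes at 0.17, dendritic cells at 0.04, neutrophils at 0.67 and other tumor cells at 0.25. Without cells holding an Ifnb1 UMI, macrophages were at 0.48 with 2 lower members, a setting that left out the control cells with the most UMIs of the 8 early-induced members. Depth limits the low members: in dendritic cells 7 of 29 and in neutrophils 10 of 29 reached 50 UMIs.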
